A study of Homo sapiens with 17 samples.

Results

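The integrated stress response regulators described here are 10 genes, ATF4, ATF3, ATF5, CEBPG, DDIT3, TRIB3, PPP1R15A, CHAC1, SESN2 and FAM129A, of the 60662 genes in the count table. They were chosen by function, as regulators that act with or downstream of the transcription factor ATF4, and were named with earlier results of this table in view, differences between progesterone (P4) treated and vehicle cells among them. Every difference of P4 treated cells, and of the libraries under the column name PSAT1_P4, from a group at a lower level is therefore given as a description without a test. Standard errors and intervals of these differences come from the same fits and are not to be read as tests. The tests given for other groups are on libraries of the same table, and their calls are not independent evidence for the 10 genes. All 10 genes were found by symbol, all 10 passed the filter on low counts in every comparison, and the lowest count of any of them in any library was 16.

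RNA sequencing was carried out on 17 cultures of Ishikawa cells, a line derived from a human endometrial adenocarcinoma that is used as a model of the endometrial epithelium. The study asked how P4 and the recombinant human protein PSAT1 alter transcripts in these cells over 24 h. The control group (n = 3) received medium alone. The vehicle group (n = 3) is named for Nap and ethanol, with the ethanol given as 70%, and another group received Nap alone (n = 2). The P4 group (n = 3) received Nap and progesterone, and ethanol is not named for it. What Nap stands for is not defined in the labels. The paper names ethanol as its vehicle control and compares P4 treated cells with vehicle controls. The labels do not say whether the P4 cultures also received ethanol. If they did not, the P4 group differs from the vehicle group in ethanol as well as in P4, and these cannot be told apart. The sample labels do not give the P4 concentration of each culture. The paper places its mRNA measurements at the highest P4 concentration it used. Its methods and its figure captions give the P4 concentrations in different units, so no dose is printed here.

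Another 6 libraries came from PSAT1 experiments, and their labels contradict each other. The 3 libraries under the column name PSAT1_P4 carry titles and treatments that name PSAT1 alone, and the 3 under the column name PSAT1 carry titles and treatments that name PSAT1 with progesterone. Which set received P4 was not settled by the labels, and both sets are called here by their column names. The same 3 libraries stay together under either reading.

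Library totals ranged from 4999521 counts, in replicate 1 of the vehicle group, to 19704493, with a median of 12964362, so that 3 counts correspond to between 0.152 and 0.600 CPM (counts scaled to the same library size). Mitochondrial transcripts took 21.4% to 28.7% of the counts, and replicates of a group differed beyond counting noise in all 16 pairs (chi-square per degree of freedom 1.54 to 20.6). The epithelial markers EPCAM, CDH1, KRT8, KRT18 and KRT19 were present in every library. Their summed level, in CPM after scaling by TMM, the normalization of edgeR, was 927 to 1079 with P4 and 965 to 1104 under the column name PSAT1_P4, below 1169 to 1172 with vehicle and 1153 to 1368 in controls. With Nap alone the sum was 1085 to 1230 CPM, which overlaps the libraries under the column name PSAT1_P4, and under the column name PSAT1 it was 1136 to 1195 CPM. KRT8 was 220 to 278 CPM with P4 against 384 to 417 with vehicle, while CDH1 was 279 to 334 CPM with P4, above each vehicle library. Of the 5 stromal markers, COL1A1 and COL3A1 were present and LUM (at most 1.402 CPM), DCN and PDGFRB were at or near 0. Their summed level was 65.9 to 76.2 CPM in P4 treated cells, 64.7 to 78.9 CPM under the column name PSAT1_P4, 68.5 to 90.9 CPM with vehicle and 91.2 to 157 CPM in controls. The 3 endothelial markers summed to 0.172 to 0.381 CPM with P4 and 1.13 to 1.49 CPM in controls, nearly all of it VWF, and CDH5 was at 0 in every library. The 3 leukocyte markers summed to at most 1.05 CPM in any library. The part of these differences in the results was not tested.

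In the integrated stress response, kinases that sense misfolded proteins, amino acid shortage, viral RNA or haem shortage phosphorylate the translation factor eIF2alpha, which lowers general protein synthesis while the mRNA of ATF4 is translated more. ATF4 is a basic leucine zipper (bZIP) transcription factor that switches on genes of amino acid supply, redox balance and, when stress persists, cell death. Among its known targets are its own partners and brakes, including the phosphatase subunit PPP1R15A, which removes the phosphate from eIF2alpha again. Counts measure mRNA, so that control of ATF4 at translation is not seen in them.

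The promoters were searched because several of the 10 genes are known to carry elements bound by ATF4 and its partners. The windows, from RefSeq on GRCh38.p14, reach from 250 bases before to 50 bases after an annotated start site, and 18 windows cover all 10 genes, with FAM129A listed as NIBAN1. On both strands they were searched for the C/EBP-ATF response element (TGATGNAA), the cyclic AMP response element (TGACGTCA) and the ER stress response element. The stretches that hold a match follow 5′ to 3′ on the plus strand with the matched letters in capitals, and in CHAC1 the capitals are the reverse complement of the element.
ATF3, chr1:212565205-212565234: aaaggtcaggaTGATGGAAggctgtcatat
CHAC1, chr15:40953251-40953280: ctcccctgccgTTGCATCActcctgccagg
CEBPG, chr19:33374060-33374089: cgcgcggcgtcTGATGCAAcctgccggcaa
PPP1R15A, chr19:48872352-48872381: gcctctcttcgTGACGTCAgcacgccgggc
ATF3, CHAC1 and CEBPG held the C/EBP-ATF element in 1 window each, and 3.62% of all 35116 promoter windows hold it. PPP1R15A held the cyclic AMP element, held by 1.85% of windows. These shares are of windows and not of genes, and a gene with several windows has more chances of a match. The first matched base lies at -191 in ATF3, -209 in CHAC1, -42 in CEBPG and -58 in PPP1R15A, relative to the start site. The ER stress element, in 0.0769% of windows, had no match in the 10 genes. A match is a run of letters and not a measured binding site, and an element outside these windows would not have been seen.

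Across the 6 column groups the 10 genes showed 3 shapes. ATF4, ATF5, TRIB3 and CEBPG overlapped the controls in Nap, vehicle and the PSAT1 columns, as did FAM129A except for lower values in the PSAT1 columns, and all 5 were higher in P4 treated cells and in the PSAT1_P4 columns. ATF3, PPP1R15A, DDIT3 and CHAC1 had an intermediate level with vehicle. SESN2 lay between these shapes. In bulk RNA, more cells expressing a gene and more RNA per cell cannot be told apart.

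ATF4 (ENSG00000128272.14, chr22:39519695-39522685 on GRCh38, plus strand) encodes the central transcription factor of the response. Its level was 302, 334 and 281 CPM in control replicates 1 to 3, 324 and 305 with Nap, 297, 318 and 289 with vehicle, and 318, 274 and 298 in the PSAT1 columns. It was 410, 426 and 451 CPM with P4 and 417, 446 and 412 in the PSAT1_P4 columns. The 6 higher libraries lay apart from the 11 others, but the step was the smallest of the 10 genes, at 1.42-fold over vehicle (log2 fold change 0.50, SE 0.06). The 4 processed pseudogenes named after ATF4 had at most 202 counts each over all libraries, against 76308 for ATF4.

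ATF3 (ENSG00000162772.17, chr1:212565334-212620777, plus strand), a bZIP factor known as an early stress gene, had the widest range. Its level was 1.02, 1.30 and 1.71 CPM in controls, 2.44 and 1.21 with Nap, and 1.27, 1.27 and 0.942 in the PSAT1 columns. With vehicle it was 10.1, 11.9 and 10.0 CPM, and with P4 131, 276 and 201 CPM. The PSAT1_P4 columns held 199, 231 and 231 CPM. No vehicle library reached the lowest P4 library and none fell to the highest untreated one, which gave 3 separate tiers. P4 treated cells were 18.9-fold over vehicle (log2 fold change 4.21, SE 0.33) and 151-fold over control (7.24, SE 0.41).

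ATF5 (ENSG00000169136.11, chr19:49928702-49933935, plus strand) encodes a bZIP factor that, like ATF4, is controlled at translation and is linked to mitochondrial stress. Its level was 9.09, 7.69 and 6.98 CPM in controls, 8.04, 9.87 and 7.72 with vehicle, and 23.1, 23.6 and 23.6 with P4. The P4 replicates differed from each other by less than those of any other gene of the 10 (coefficient of variation 1.31%), and lay 2.74-fold over vehicle (log2 fold change 1.42, SE 0.12). The P4 libraries held 240, 275 and 309 counts of ATF5. Counting error alone exceeds that coefficient at such counts, so nothing is read from the small spread. Its exons overlap those of NUP62 and IL4I1 on the opposite strand, and the strand setting of the counting is not given in the sources used here, so part of these counts could belong to NUP62, which had 12590 counts over all libraries against 2851 for ATF5.

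CEBPG (ENSG00000153879.9, chr19:33373330-33382686, plus strand) encodes C/EBP gamma, with which ATF4 can pair on DNA. Its level was 55.4, 53.3 and 63.5 CPM in controls, 54.9, 55.5 and 57.6 with vehicle, and 228, 271 and 247 with P4. Apart from the P4 and PSAT1_P4 groups all group means lay between 56.0 and 57.4 CPM. The P4 level was 4.44-fold over vehicle (log2 fold change 2.13, SE 0.08).

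DDIT3 (ENSG00000175197.12, chr12:57516588-57521737, minus strand) encodes CHOP, a C/EBP-family factor linked to cell death under lasting stress. Its level was 5.97, 8.26 and 6.98 CPM in controls, 7.39 and 6.03 with Nap, 12.6, 14.7 and 12.9 with vehicle, and 159, 259 and 220 with P4. The vehicle libraries lay above all control, Nap and PSAT1-column libraries and far below P4. P4 treated cells were 15.8-fold over vehicle (log2 fold change 3.95, SE 0.18). DDIT3 exons overlap the opposite-strand genes MARS, a tRNA synthetase gene with 86118 counts over all libraries, and MBD6, so its counts carry the same uncertainty of strand as those of ATF5.

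TRIB3 (ENSG00000101255.11, chr20:362835-397559, plus strand) encodes a pseudokinase that binds ATF4 and dampens its activity. Its level was 19.96, 17.7 and 19.2 CPM in controls, 18.2, 17.2 and 18.5 with vehicle, and 313, 402 and 387 with P4. The vehicle group had the lowest mean of the 6 but overlapped the controls, and the P4 level was 20.5-fold above it (log2 fold change 4.34, SE 0.10).

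PPP1R15A (ENSG00000087074.8, chr19:48872392-48876057, plus strand) encodes GADD34, the inducible subunit that brings a phosphatase to eIF2alpha and so ends the response. Its level was 14.2, 15.2 and 12.3 CPM in controls, 12.6 and 16.7 with Nap, 29.7, 40.7 and 36.5 with vehicle, and 86.2, 154 and 123 with P4. As with ATF3 and DDIT3, vehicle formed a tier of its own. P4 treated cells were 3.41-fold over vehicle (log2 fold change 1.73, SE 0.20) and 8.72-fold over control (3.10, SE 0.19), so the choice of reference changed the size of the difference by over a factor of 2.

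CHAC1 (ENSG00000128965.13, chr15:40952962-40956519, plus strand) encodes an enzyme that breaks down glutathione. Its level was 9.15, 9.45 and 7.65 CPM in controls, 10.5, 13.6 and 13.8 with vehicle, and 45.0, 33.7 and 32.3 with P4. All 3 vehicle libraries were above all 3 controls, by less than for PPP1R15A. P4 treated cells were 2.92-fold over vehicle (log2 fold change 1.49, SE 0.15).

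SESN2 (ENSG00000130766.5, chr1:28259527-28282491, plus strand) encodes sestrin 2, a leucine sensor that restrains mTORC1. Its level was 18.7, 19.7 and 20.6 CPM in controls, 23.2, 22.9 and 22.9 with vehicle, and 98.6, 93.7 and 92.9 with P4. P4 treated cells were 4.13-fold over vehicle (log2 fold change 2.03, SE 0.08), with a coefficient of variation among P4 replicates of 3.24%.

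FAM129A (ENSG00000135842.17, chr1:184790724-184974550, minus strand), now named NIBAN1, encodes a stress-induced cytoplasmic protein. Its level was 12.6, 15.2 and 15.2 CPM in controls, 12.8, 15.4 and 14.95 with vehicle, and 260, 323 and 325 with P4. It showed no step with vehicle and the largest log2 fold change of P4 over vehicle among the 10, at 4.35 (SE 0.11), or 21.0-fold. TRIB3 at 4.34 (SE 0.10) and ATF3 at 4.21 (SE 0.33) lay within the error of this value, so the rank is not resolved. In the PSAT1 columns it was 12.4, 11.1 and 12.4 CPM, below all 3 controls.

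**Figure D1:**
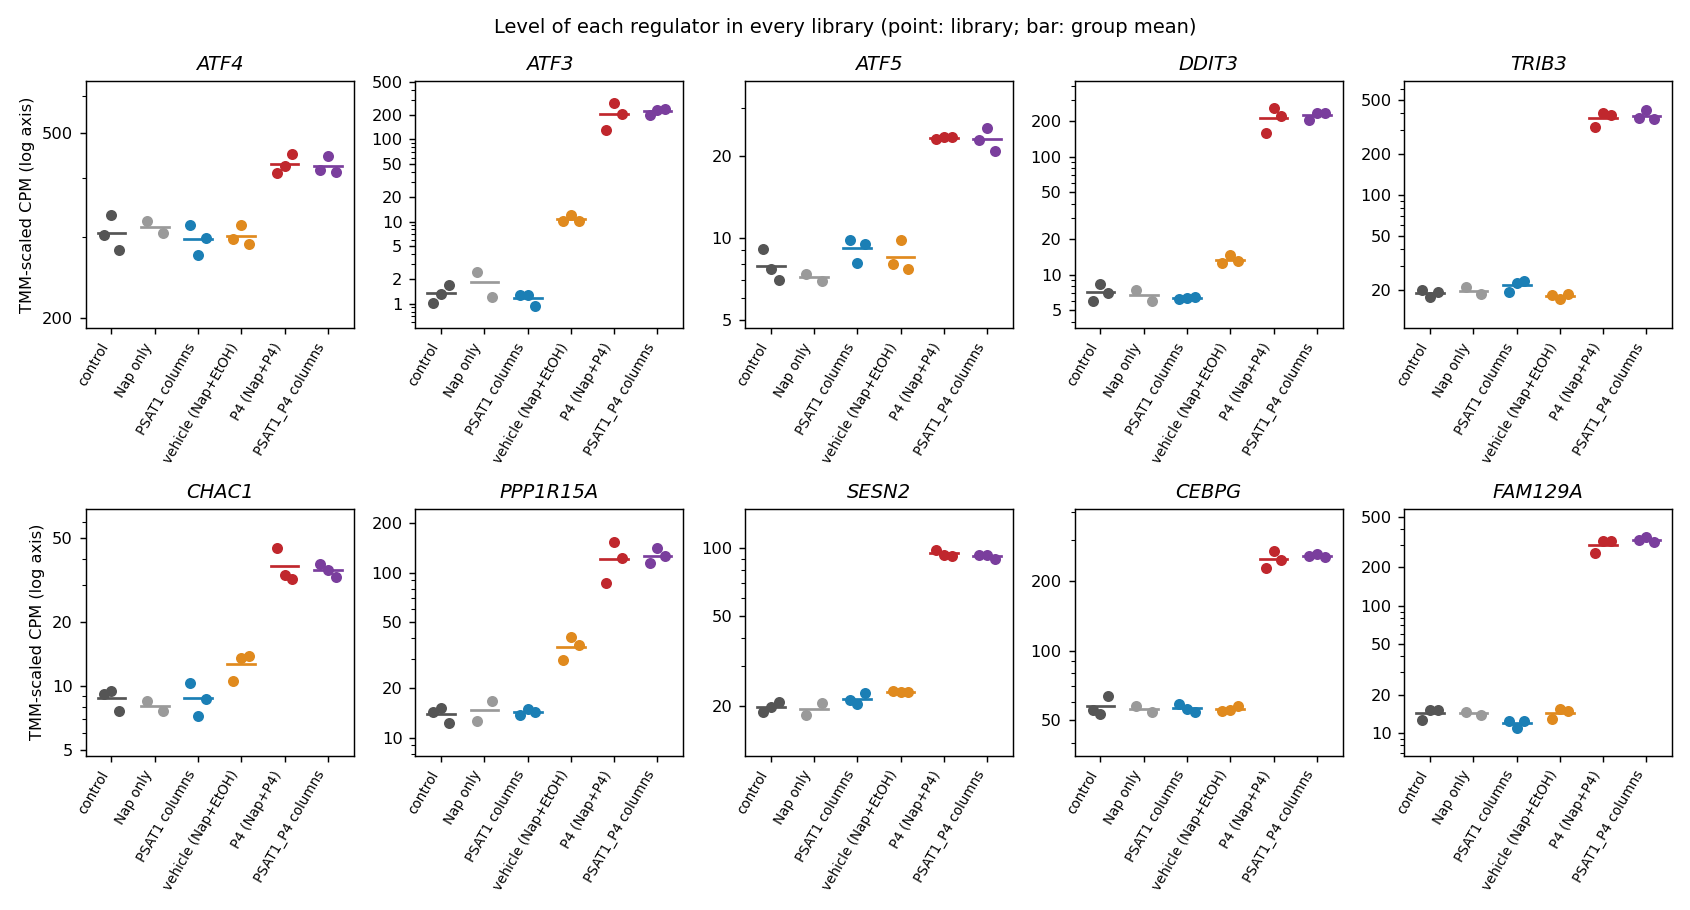
Level of each of the 10 genes (TMM-scaled CPM, log axis) in each library, with 1 point a library and a bar at the group mean, for control, Nap only, PSAT1 columns, vehicle, P4 and PSAT1_P4 columns. All P4 and PSAT1_P4-column points lie above all others in every panel, and ATF3, DDIT3, PPP1R15A and CHAC1 show an intermediate tier with vehicle.

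Together, the 10 genes had a median log2 fold change of 2.08 between P4 treated and vehicle cells, and the P4 replicates lay above the vehicle replicates for all 10. Of the 16540 genes tested there, 53.0% passed an adjusted p of 0.05 (26.6% higher, 26.5% lower, or 3603 genes higher and 5244 lower under upper-quartile scaling), and for 30.7% the P4 replicates lay above the vehicle replicates. Because the genes were named with this contrast known, nothing is read from their count. Against Nap alone the median was 2.64, with 49.7% of genes passing, and against control it was 2.67, with 54.8% passing. These comparisons share the P4 libraries. ATF3 differed most between references, at 4.21 against vehicle, 6.79 against Nap and 7.24 against control, whereas TRIB3 gave 4.34, 4.20 and 4.25.

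The replicates of the P4 group differed unevenly among the 10 genes. The coefficient of variation was 35.7% for ATF3, 28.1% for PPP1R15A and 23.8% for DDIT3, against 4.81% for ATF4. Replicate 1 of the P4 group was the lowest of the 3 for 8 of the 10 genes and the highest for the other two, CHAC1 and SESN2. In the PSAT1_P4 columns the same coefficients were 8.39% for ATF3, 10.9% for PPP1R15A and 7.69% for DDIT3.

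Levels were compared between genes only per kilobase of exon (RPKM from the scaled counts). In controls ATF4 stood at 122 ± 10.7 RPKM (SD, n = 3) and CEBPG at 13.01 ± 1.22, and the other 8 genes lay between 0.332 and 5.70. With P4, ATF4 was at 171 ± 8.21 RPKM, DDIT3 at 163 ± 38.8 and TRIB3 at 107 ± 13.8. DDIT3 and ATF4 thus did not differ beyond the spread of DDIT3 over P4 replicates, while in controls ATF4 was at 122 and DDIT3 at 5.41 ± 0.876. Below them followed CEBPG at 56.4 ± 4.93, ATF3 at 50.1 ± 17.9, PPP1R15A at 39.2 ± 11.0, FAM129A at 36.1 ± 4.40, SESN2 at 27.5 ± 0.893, CHAC1 at 17.96 ± 3.38 and ATF5 at 7.92 ± 0.104. The P4 replicates of ATF3 overlapped those of CEBPG, PPP1R15A and FAM129A, and those of PPP1R15A overlapped those of FAM129A, so these orders are not resolved. CEBPG, at 51.6 RPKM or more, lay above every P4 library of PPP1R15A (at most 49.8) and of FAM129A (at most 38.8). ATF5, at 2.68 ± 0.364 in controls above ATF3 and FAM129A, was the lowest with P4.

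**Figure D2:**
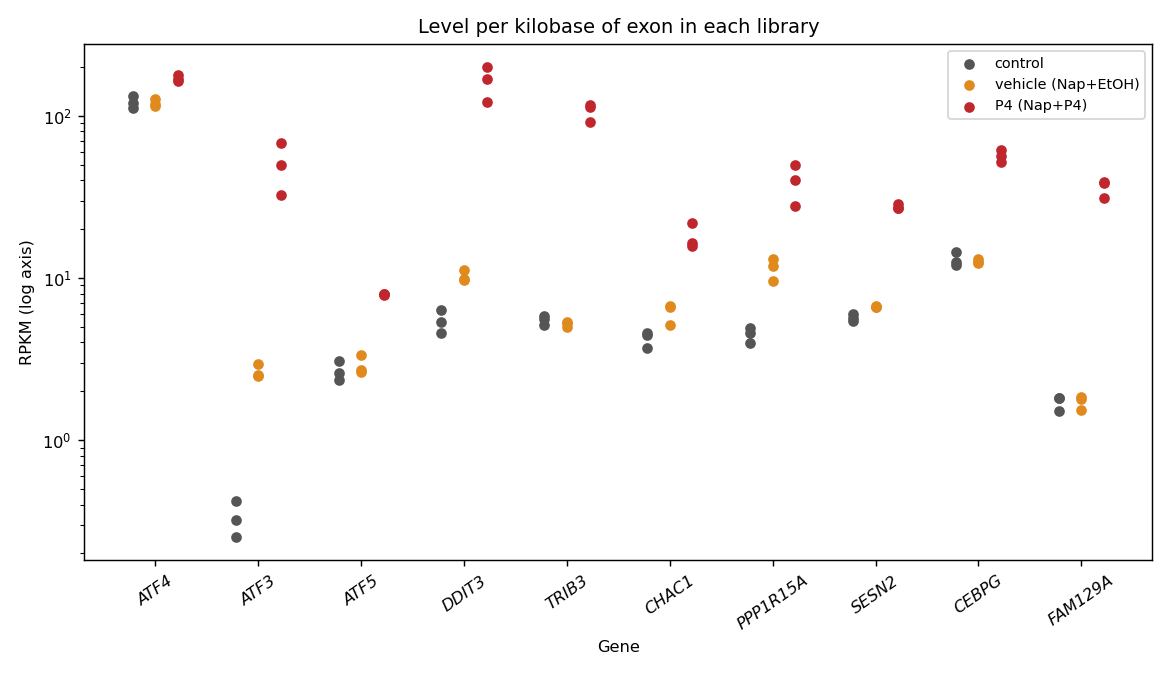
Level per kilobase of exon (RPKM, log axis) of each gene in each control, vehicle and P4 library, with 1 point a library. ATF4 is the highest gene in controls at 122 RPKM, and with P4 the 3 points of ATF4 fall within the wider range of DDIT3, at means of 171 and 163 RPKM.

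The vehicle itself was compared with medium alone. These libraries belong to the table in view when the genes were named, which limits what the calls support. ATF3 rose by 3.03 on the log2 scale (SE 0.20, edgeR adjusted p = 4.4e-10), PPP1R15A by 1.37 (SE 0.11, adjusted p = 1.7e-08), DDIT3 by 0.94 (SE 0.14, adjusted p = 0.00011) and CHAC1 by 0.56 (SE 0.14, adjusted p = 0.0065). These 4 of the 10 genes passed, where 22.6% of the 16673 genes tested passed (11.9% higher). Replicates lay apart for 5 of the 10, the 4 named and SESN2, against 38.9% of all genes (19.3% higher). The log2 fold change of SESN2 was 0.23 (SE 0.10, adjusted p = 0.098). The call on CHAC1 was lost without vehicle replicate 2 (adjusted p = 0.052) or replicate 3 (0.058).

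For ATF4 the difference between vehicle and control was -0.02 on the log2 scale with a 95% interval of -0.18 to 0.14, for CEBPG -0.03 (-0.20 to 0.14), for TRIB3 -0.08 (-0.30 to 0.14), for FAM129A 0.03 (-0.22 to 0.28) and for ATF5 0.12 (-0.21 to 0.44). None of these 5 passed, and the intervals leave room for changes of up to 0.44. Vehicle was compared with Nap alone as well, sharing the vehicle libraries. ATF3 was higher by 2.60 (SE 0.23, adjusted p = 4.4e-08), PPP1R15A by 1.31 (SE 0.13, adjusted p = 2.0e-06), DDIT3 by 1.03 (SE 0.15, adjusted p = 3.5e-05) and CHAC1 by 0.70 (SE 0.15, adjusted p = 0.0014), where 23.8% of genes passed (12.7% higher). The other 6 did not pass.

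Nap alone was compared with control over 2 against 3 cultures. None of the 10 genes passed edgeR's test, and neither did any of the 17166 genes tested, of which 217 had an unadjusted p under 0.05, while DESeq2 called 1. The log2 fold changes of the 10 ranged from -0.14 (ATF5) to 0.45 (ATF3), and the 95% interval for ATF3 reached from -0.27 to 1.16.

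**Figure D3:**
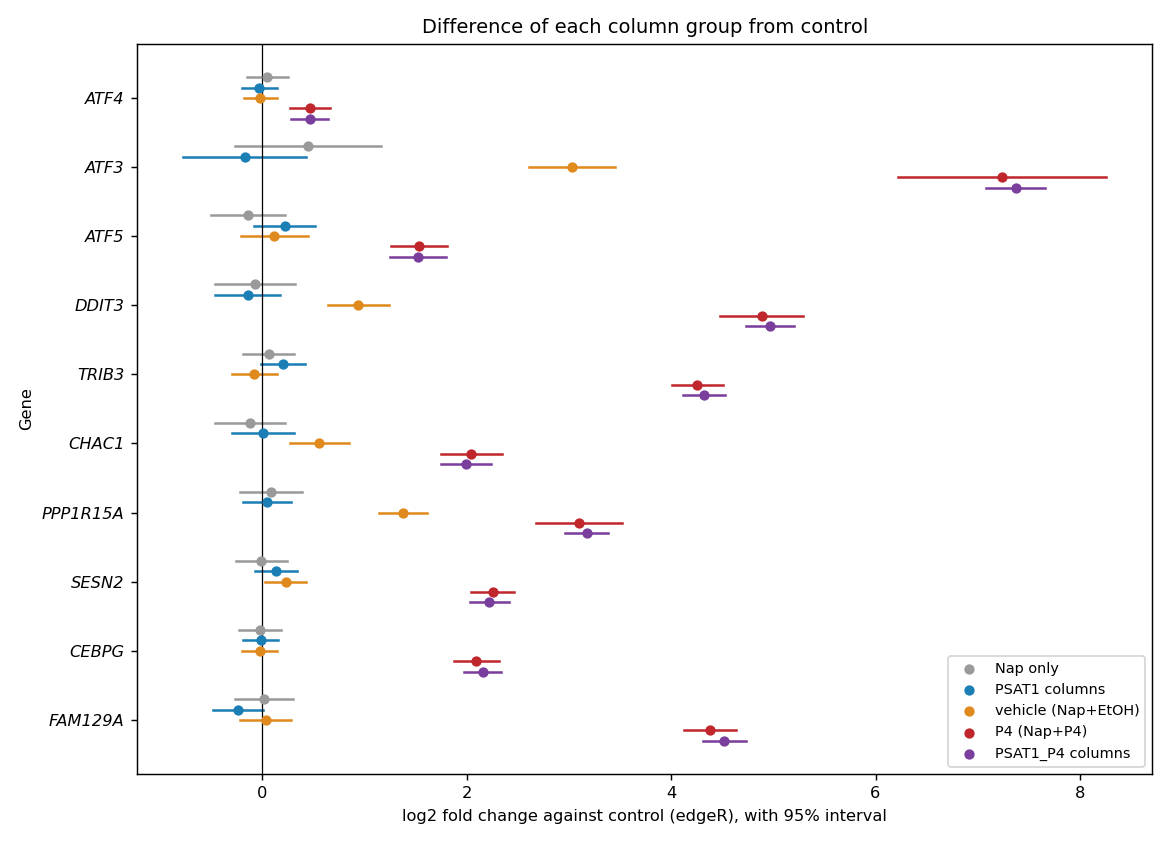
Log2 fold change of each gene against control (edgeR, points, with 95% intervals as lines) for Nap only, PSAT1 columns, vehicle, P4 and PSAT1_P4 columns. For P4 and the PSAT1_P4 columns the distance of the intervals from 0 is not read as a test. Vehicle lies to the right of 0 for ATF3 (3.03), PPP1R15A (1.37), DDIT3 (0.94) and CHAC1 (0.56), and the P4 and PSAT1_P4-column intervals overlap for all 10 genes, with P4 points from 0.47 for ATF4 to 7.24 for ATF3.

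The libraries of the PSAT1 experiments were compared by column name. Those under PSAT1_P4 were higher than control for all 10 genes, where 60.2% of 16209 genes passed edgeR's test (30.0% higher). The log2 fold changes ranged from 0.46 (SE 0.09) for ATF4 to 7.37 (SE 0.14) for ATF3, with a median of 2.70. DDIT3 was higher by 4.97, FAM129A by 4.52, TRIB3 by 4.32, PPP1R15A by 3.17, SESN2 by 2.22, CEBPG by 2.15, CHAC1 by 1.99 and ATF5 by 1.52. No test is given and nothing is read from this count. Against the PSAT1 columns all 10 were again higher, where 62.3% of genes passed (30.7% higher), from 0.49 for ATF4 to 7.54 for ATF3.

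The PSAT1 columns showed no such levels. ATF3 was at most 1.27 CPM there, against 1.02 to 1.71 CPM in controls, and DDIT3 was 6.24, 6.40 and 6.41 CPM. Compared with control, none of the 10 passed edgeR's test, and none of 17214 genes did, although 1004 had an unadjusted p under 0.05, and DESeq2 called 0. The log2 fold changes of the 10 ranged from -0.24 for FAM129A (95% interval -0.49 to 0.00) to 0.22 for ATF5 (-0.08 to 0.51). FAM129A was the 1 gene of the 10 whose PSAT1-column replicates lay apart from the controls, below them, where 11.2% of genes lay apart (6.38% lower). Relative to P4 treated cells the PSAT1 columns were lower for all 10, from -7.42 for ATF3 to -0.51 for ATF4 on the log2 scale, where 57.1% of genes passed (28.3% lower), and as in the other comparisons with P4 nothing is read from this.

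The PSAT1_P4 columns and the P4 group could not be separated in these genes. TRIB3 was 366, 418 and 362 CPM in the columns, FAM129A 327, 347 and 318, CEBPG 257, 262 and 254, SESN2 93.2, 93.9 and 89.9, and CHAC1 37.8, 35.3 and 32.9. The replicates overlapped for all 10 genes, where those of 5.99% of all genes lay apart. Differences ranged from -0.07 (CHAC1) to 0.12 (FAM129A) on the log2 scale, and the 95% intervals reached from -0.43 to 0.65, both bounds being those of ATF3. None of the 15621 genes tested passed edgeR's test, 199 had an unadjusted p under 0.05, and DESeq2 called 0. For FAM129A the interval was -0.07 to 0.31 and for SESN2 -0.20 to 0.10.

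The rest of the pathway was followed in 84 genes in 7 lists, written with earlier results of these data known. Between P4 treated and vehicle cells all 84 were tested, and 61 (72.6%) were higher, 6 (7.14%) lower and 17 did not pass, beside 26.6% higher and 26.5% lower over all genes. The lists differed in this. Target genes of ATF4 were mostly higher, with 35 of 37 higher, 1 lower and a median of 1.02, whereas the machinery upstream of ATF4 was mixed. Because earlier results were known when the lists were written, nothing is read from these counts or from their contrast with all genes. The p-values of listed genes, here and below, describe these libraries and are not independent evidence.

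Of the 4 eIF2alpha kinases, EIF2AK3 (PERK, the sensor of misfolded proteins in the endoplasmic reticulum) was higher by 0.87 (SE 0.11, adjusted p = 4.1e-05) and EIF2AK2 (PKR, the sensor of double-stranded RNA) lower by 0.52 (log2 fold change -0.52, SE 0.07, adjusted p = 7.1e-05). The other two did not pass. Of 9 subunits and relatives of eIF2 and its exchange factor eIF2B, 3 were higher, 1 lower and 5 did not pass. EIF2S2, the beta subunit of eIF2, changed by 0.85 (SE 0.07, adjusted p = 1.0e-06) and EIF2A by 0.71 (SE 0.07, adjusted p = 8.3e-06), while EIF2B1 changed by -0.23 (SE 0.08, adjusted p = 0.024). EIF2S2 was also lower with vehicle than in control, by -0.38, and its difference between P4 and control was 0.47.

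The phosphatase that acts with PPP1R15A had 2 of 4 listed partners higher and 1 lower. PPP1CB, a catalytic subunit, changed by 0.92 (SE 0.07) and PPP1R15B, the constitutive counterpart of PPP1R15A, by 0.54 (SE 0.07), while PPP1CA, another catalytic subunit, changed by -0.58 (SE 0.07). In the relay that reports mitochondrial stress to eIF2alpha, the protease OMA1 changed by 0.42 (SE 0.10) and its substrate DELE1 by -0.31 (SE 0.09). OMA1 did not pass against control (0.10, edgeR adjusted p = 0.46), whereas DELE1 did (-0.37, adjusted p = 0.0058).

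Of 9 other bZIP factors and factors of ATF4 turnover, 7 were higher, none lower and 2 did not pass, with a median of 0.79. CEBPB, a C/EBP factor that pairs with ATF4, was 14.0, 15.5 and 14.3 CPM in controls, 16.5, 14.7 and 12.8 with vehicle, and 48.8, 61.7 and 60.9 with P4, a log2 fold change of 1.98 over vehicle (SE 0.12, adjusted p = 9.2e-08). JDP2, a repressor of the same dimer family, changed by 1.37 (SE 0.09, adjusted p = 2.8e-07).

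Among the ATF4 targets GDF15, a stress cytokine, was 2.85, 3.27 and 3.12 CPM in controls, 3.44, 3.90 and 3.78 with vehicle, and 115, 148 and 145 with P4, with a log2 fold change of 5.16 over vehicle (SE 0.13, adjusted p = 1.4e-10). MTHFD2, a mitochondrial folate enzyme, changed by 1.78 (SE 0.06, adjusted p = 1.5e-09). ALDH18A1, an enzyme of proline synthesis, was the 1 target that was lower, by -0.37 (SE 0.06, adjusted p = 0.00039). PSAT1, the serine synthesis enzyme whose protein was added in the other arm, changed by 0.76 over vehicle (SE 0.10, adjusted p = 4.9e-05) and by 0.45 over control (SE 0.11, adjusted p = 0.0027), its mean vehicle level of 234 CPM being below the control mean of 288 CPM.

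The other arms of the unfolded protein response, which run through ATF6 and XBP1, had 12 of 19 genes higher, 1 lower and 6 that did not pass. XBP1 itself changed by 1.33 (SE 0.08, adjusted p = 5.4e-08), ATF6 by 1.28 (SE 0.08) and SEL1L, a membrane component of endoplasmic reticulum degradation, by 1.47 (SE 0.09), the last 2 tied at an adjusted p of 9.2e-08. CRELD2, a secreted protein induced by stress of the endoplasmic reticulum, changed by -0.59 (SE 0.12, adjusted p = 0.00096).

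With vehicle against control the same lists had 82 genes tested, 8 higher (9.76%), 18 lower (21.95%) and 56 that did not pass, beside 11.9% higher and 10.7% lower over all genes. Of 36 ATF4 targets tested, 4 were higher and 11 lower, with a median of -0.13. Over all listed genes this lean depended on single libraries. There were 8 higher and 9 lower without vehicle replicate 1, 6 and 11 without replicate 2, 6 and 7 without replicate 3, and 9 and 27 without control replicate 2. Of the named genes, PSAT1 (-0.30, adjusted p = 0.0051) and EIF2S2 (-0.38, adjusted p = 0.0012) fell, and EIF2AK3 did not pass (0.17, adjusted p = 0.15). The PSAT1_P4 columns against control gave 61 of 83 higher and 9 lower, and GDF15 was 5.47 higher there (SE 0.12, edgeR adjusted p = 5.0e-26).

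**Figure D4:**
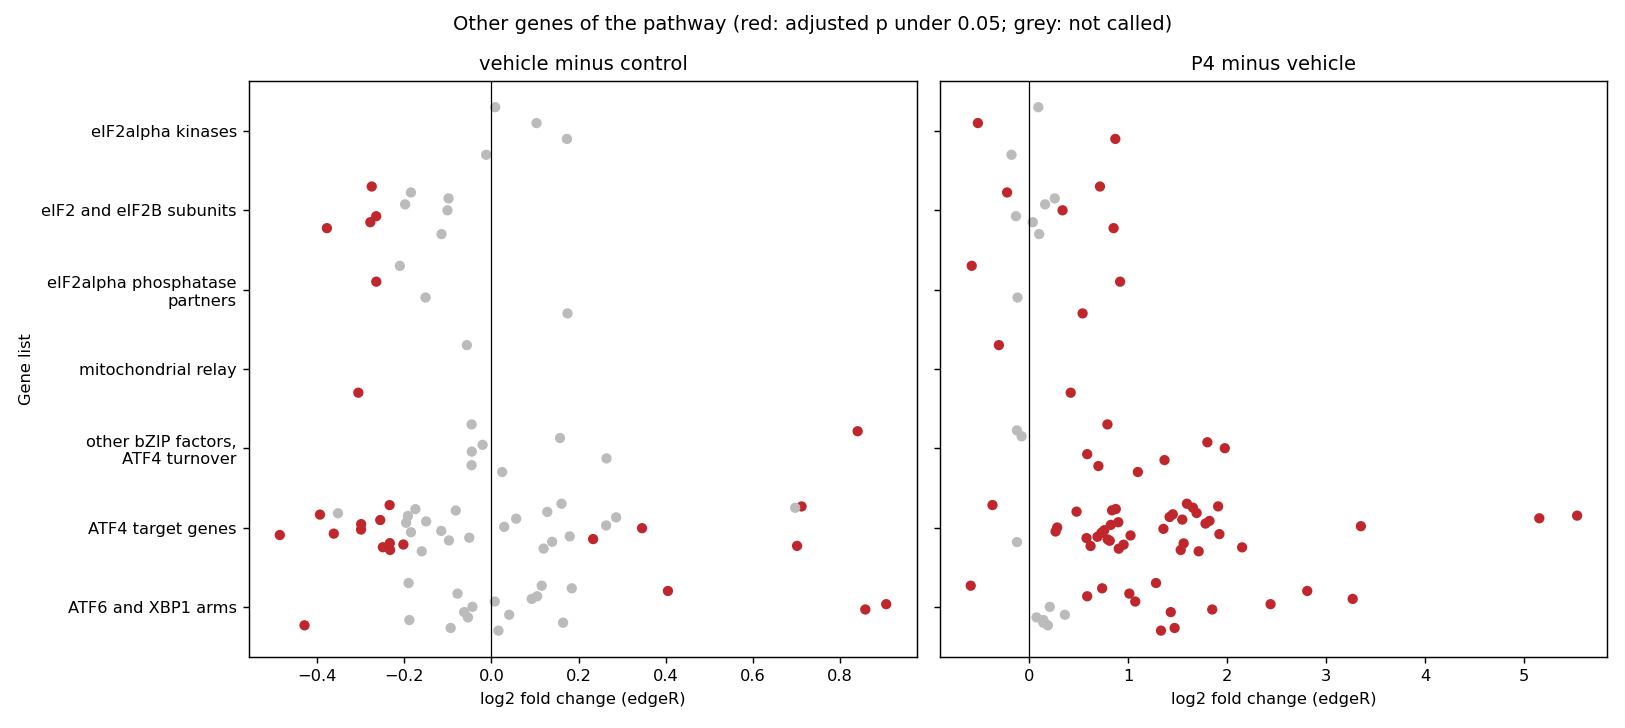
Log2 fold change (edgeR) of each gene of the 7 pathway lists for vehicle minus control (left) and P4 minus vehicle (right), with genes passing an adjusted p of 0.05 in red and others in grey. The horizontal scales of the panels differ. On the right 61 of 84 genes are higher and 6 lower, on the left 8 of 82 are higher and 18 lower.

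The genes outside the 10 whose group means followed 9 of them most closely were found over 12554 protein-coding genes, by the root mean square difference of log2 levels relative to control over the 6 column groups. ATF4 was followed most closely by TENT2 (0.02), CEBPG by MIA2 (0.02), CHAC1 by RUNX2 (0.04), ATF5 by SYTL1 (0.06), FAM129A by RGS16 (0.10), TRIB3 by ARG2 (0.13), PPP1R15A by HERPUD1 (0.25) and DDIT3 by BDNF (0.32). ATF3 stood alone, with HKDC1 nearest at 1.25, since HKDC1 was 0.06 above control with vehicle where ATF3 had its tier. Among the 10, TRIB3 and FAM129A were nearest to each other, at 0.21, and CEBPG was nearest to SESN2, at 0.14. The groups share libraries and these values describe their means.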

How the data were processed

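The authors deposited gene counts without normalization, made from reads trimmed with Cutadapt, filtered by quality and uniquely aligned with Subread, using featureCounts and GENCODE 31. Versions and the strand setting of the counting are not given in the sources used here. The libraries were made with a stranded total RNA kit and read as single ends. DESeq2 was the authors' test.

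Here counts were tested with edgeR 4.0.16 in R 4.3.3 (TMM, filterByExpr with a minimum count of 10, robust quasi-likelihood fit, Benjamini-Hochberg adjustment over all genes tested), each comparison with its 2 groups only. A gene was called at an adjusted p under 0.05. Levels are TMM-scaled CPM over all 17 libraries, and RPKM divides these by the exon length of the gene. Replicates are the biological replicates of the labels. Whether they came from separate passages is not stated, so p-values set a difference against the spread between these cultures only. The floor of 3 counts covers counting error only, while the 95% intervals come from the fits and include the spread between replicates. The script was tested on simulated data. Names and positions came from GENCODE 29 on GRCh38 (58587 of 60662 genes, 2054 from a table of gene names, 21 without a name), and promoter sequence from RefSeq. No column was set aside (columns unused: 0).

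The 10 genes, the 7 lists and the markers were chosen with earlier results of these data known. All 10 are named, with the 2 genes of each list of smallest adjusted p in each direction for P4 against vehicle (and a tie), PSAT1, and for each of the 10 the nearest gene in group profile among protein-coding genes of mean CPM of at least 1. Of these nearest genes, 9 are given and 1 is not reported here. Alternatives were a fit with DESeq2 1.42.0, the RLE or upper-quartile scaling, either no filter on low counts or 10 counts required in each library, a joint fit of all 6 groups, a replicate block, and a fit without each replicate. Python 3.11.15 with pandas 2.3.3, numpy 2.4.6, scipy 1.17.1 and matplotlib 3.10.9 made tables and plots. GC content and set tests were not used here.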

Additional observations from a re-analysis of the deposited data

How the results depend on the processing

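In the comparisons for which a test on the 10 genes is given, the number that passed was the same under every alternative, with 1 exception. CHAC1 no longer passed for vehicle against control without vehicle replicate 2 or 3. No difference that passed changed its sign. The differences of P4 treated cells and the PSAT1_P4 columns from groups at a lower level, given without a test, kept their sign under every alternative. Small differences of the 10 that did not pass changed sign under some alternatives, as ATF3 for Nap against control did (-0.12 to 0.88). Upper-quartile normalization moved the median of all genes by about 0.1 between P4 and vehicle (to -0.10), where ATF4 was then 0.41 and SESN2 1.95. Between P4 and Nap, ATF4 was then 0.34 and ATF5 1.60. Counts over the 84 listed genes moved more. For P4 against vehicle 10 were lower under upper-quartile normalization (6 as reported). For P4 against Nap 8 were lower as reported, 5 with DESeq2, and 3 to 9 when 1 replicate was left out. For vehicle against control the 18 lower became 7 to 27 with 1 replicate left out. For vehicle against Nap, 13 were higher and 20 lower as reported, with DESeq2 8 higher, with all groups in the fit 7 higher and 8 lower, with no filter 9 higher and 23 lower, and with 1 replicate left out 6 to 12 higher and 9 to 25 lower, of which the lean turned to 10 higher and 9 lower without vehicle replicate 3 and was even at 12 and 12 without Nap replicate 1. The cause was not tested.

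Over all genes, vehicle against control gave 3763 calls, 2038 without vehicle replicate 2 and 1908 without replicate 3. Vehicle against Nap gave 4034, and 2262 with DESeq2, 2310 with all groups, 2355 without vehicle replicate 2 and 2471 without replicate 3. P4 against Nap gave 8446, and 5606 or 5502 without Nap replicate 1 or 2. Nap against control gave 0, and 3 with no filter, 1 with all groups and up to 5 with 1 replicate left out. The PSAT1 columns against control gave 0, 14 with no filter and 5 without replicate 1 of the PSAT1 columns, and the PSAT1_P4 columns against P4 gave 0, 1 with no filter and 1 without replicate 3 of the PSAT1_P4 columns.

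The replicate numbers do not pair the cultures by the labels, and the correlations of same-numbered deviations ranged from -0.043 to 0.049 for P4 and vehicle and from 0.28 to 0.34 for the 2 pairs of Nap and control. Each comparison with 3 pairs had at least 1 pair under 0.1. With the replicate number as a block the calls on the 10 genes were as reported, listed genes lower for P4 against Nap became 5 and for Nap against control 1, and calls over all genes became 42 for Nap against control, 29 for the PSAT1 columns against control and 1 for the PSAT1_P4 columns against P4. Only 2 to 3 cultures a group and the 4999521 counts of vehicle replicate 1 limit the precision.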
